A study of Mus musculus with 12 samples.

Results

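Collagen chain genes encode the chains from which every collagen is built. All 44 of them in the deposited tables, out of 24906 listed genes, were followed across 12 RNA-Seq libraries of mouse tumor organoids, small clusters of epithelial cells kept in culture. The members were chosen by name only, as every symbol made of Col, a type number, the letter a and a chain number, and not by any measured value. The organoids came from small intestinal tumors of mice in which tamoxifen-activated Villin-CreERT2, a recombinase made in intestinal epithelium, had deleted floxed Smad4. All libraries, controls included, carried the same genotype, Smad4KO;BRAFV600E/+;pINDUCER-SMAD4, in which pINDUCER-SMAD4 is a lentiviral construct that expresses SMAD4, the shared transcription factor of TGFβ and BMP signaling, when doxycycline (dox) is added. Organoids were grown for 48 h in crypt medium containing the BMP inhibitor Noggin, either embedded in BME (basement membrane extract, a 3D gel) or on bare plastic.

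In BME there were 3 untreated libraries (lines 682, 700 and 889), 2 libraries with 4 µg/mL dox (lines 700 and 889) and 1 library of line 682 labelled as dox with the word mock. The plastic arm held 3 pairs, each an untreated library and one with 4 µg/mL dox, from lines 560, 700 and 889. The number in a sample title was taken as the organoid line, and the dox and untreated libraries of a line in the same environment formed a pair. The labels do not say whether each line is a separate animal, nor the animals' ages, so p-values measure the spread between these libraries. The labels contradict each other for the mock library, since its genotype still names the construct. It was counted with the controls, as the study counts it, which gave 2 dox against 4 control libraries in BME. Depth, estimated from the steps between low values, was about 12700000 to 15700000 reads for the BME libraries and 15300000 to 20200000 reads for those on plastic. Epithelial identity was examined first: 10 of 10 epithelial markers in BME and 9 of 10 on plastic had a mean of at least 0.5 FPKM (fragments mapped per kilobase and per library total, so a level per length). Smad4, the induced gene, measured 17.2 and 27.3 FPKM with dox and 6.23 to 10.3 FPKM in the BME controls, and 18.1 to 73.6 FPKM with dox and 1.54 to 4.76 FPKM without dox on plastic. In the mock library Smad4 was 10.3 FPKM, against 8.88 FPKM in the untreated library of the same line. These levels hold construct reads only so far as they were counted under the mouse gene.

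Collagen chains wind around each other in a triple helix, and the chain combination decides what the molecule does outside the cell. Fibrillar chains such as those of type I form the tensile fibers of connective tissue and come mainly from fibroblasts. Type IV chains form the sheet-like network of the basement membrane on which an epithelium rests, and type XVIII, a multiplexin that also carries heparan sulfate, lies in the same zone. Transmembrane chains such as Col17a1, part of the hemidesmosome, are anchored in the cell surface. In the intestine, epithelial and stromal cells each contribute components of the basement membrane.

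Few chain genes were expressed, and the level lay almost wholly in the basement membrane classes. With a minimum of 0.5 mean FPKM over the 6 libraries of a table, 7 of 44 chains were expressed in BME and 5 of 44 on plastic. Col4a1, Col4a2, Col4a5, Col18a1 and Col27a1 were expressed in both, and Col20a1 and Col1a1 in BME. With 0.5 FPKM required in every library, 6 chains remained in BME, without Col1a1, and 4 on plastic, without Col27a1. The remaining 37 chains were under the minimum in both tables. Of all chains, 6 were listed at 0 in every BME library, 4 in every plastic library and 1, the beaded filament chain Col6a4, in all 12 libraries. The chains nearest the minimum in BME were Col1a1 (mean 1.10 FPKM) and Col27a1 (1.74 FPKM) inside it, and Col16a1 (0.398 FPKM) and Col9a3 (0.375 FPKM) outside it. On plastic they were Col27a1 (0.803 FPKM) and Col4a5 (2.06 FPKM) inside, and Col20a1 (0.490 FPKM) and Col7a1 (0.309 FPKM) outside.

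**Figure D1:**
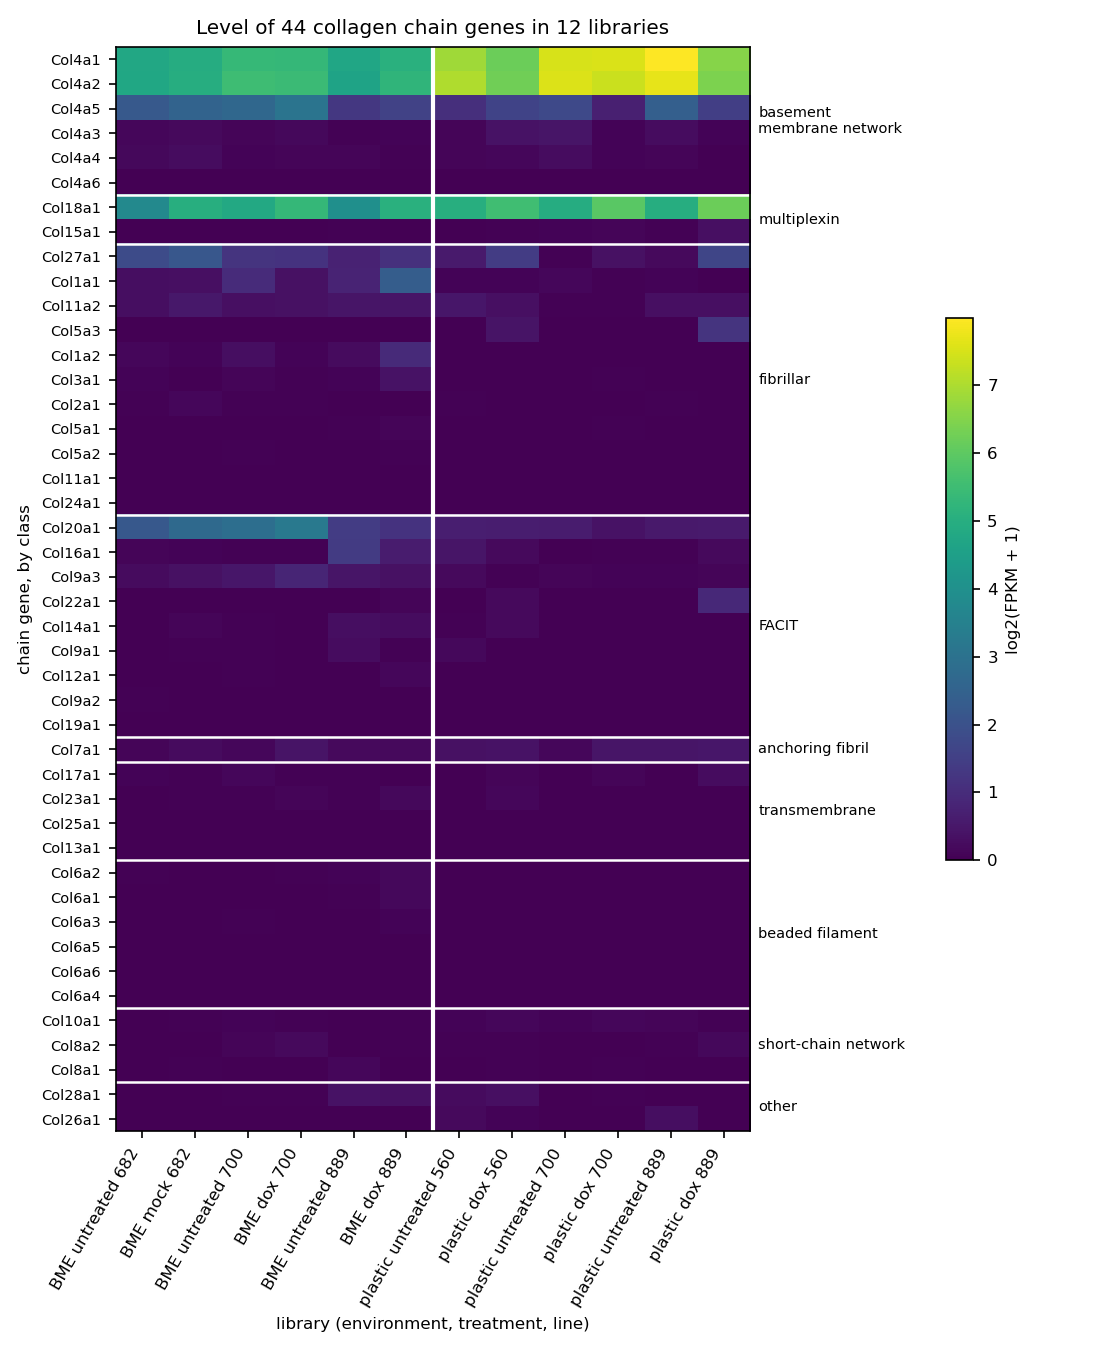
Level of each of the 44 collagen chain genes (rows, by class) in each of the 12 libraries (columns, BME left and plastic right of the white line), as log2(FPKM + 1) by color. The bright rows are Col4a1, Col4a2 and Col18a1, and 37 chains stayed under a mean of 0.5 FPKM in both tables. The tables were normalized separately, so colors left and right of the line are not on a tested common scale.

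Summed by class, the 6 chains of the basement membrane network (Col4a1 to Col4a6) made up 60.9% to 74.2% of all collagen chain FPKM in a BME library and 69.3% to 93.5% on plastic. Their sums were 51.0 to 89.3 FPKM in BME and 150 to 465 FPKM on plastic. The 2 multiplexin chains, Col15a1 and Col18a1, summed to 12.5 to 39.4 FPKM in BME and 30.1 to 72.7 FPKM on plastic, nearly all of it Col18a1. The 11 fibrillar chains together reached 1.97 to 7.03 FPKM in BME and 0.207 to 3.74 FPKM on plastic. The 9 FACIT chains, which decorate the surface of fibrils, summed to 2.50 to 9.22 FPKM in BME and 0.394 to 1.59 FPKM on plastic. The 4 transmembrane chains (Col13a1, Col17a1, Col23a1 and Col25a1) summed to at most 0.146 FPKM in BME and 0.216 FPKM on plastic, and none was expressed. The lowest type IV network sum in a table was thus far above the highest fibrillar or transmembrane sum in it. Both tables were normalized by the authors on their own 6 libraries, so levels are given side by side and were not tested between BME and plastic.

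Within the basement membrane network the 3 expressed chains were unequal. Col4a1 (chr8:11198423-11312826, minus strand, build NCBIM37) and Col4a2 (chr8:11312805-11449287, plus strand) encode the chains of the most widespread type IV collagen and lie head to head, with 22 shared bases. In BME, Col4a1 measured 26.8, 39.7 and 25.7 FPKM in untreated lines 682, 700 and 889, 29.6 FPKM in the mock library, and 39.2 and 32.4 FPKM with dox in lines 700 and 889. Both dox values lay inside the range of the controls. On plastic, Col4a1 measured 114, 181 and 253 FPKM in untreated lines 560, 700 and 889 and 72.9, 186 and 92.4 FPKM in the same lines with dox. It was lower with dox in lines 560 and 889 and about equal in line 700, and the groups overlapped.

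Col4a2 ran beside it. Its BME values were 26.2, 44.1 and 23.8 FPKM in untreated lines 682, 700 and 889, 30.5 FPKM in the mock library, and 42.3 and 36.4 FPKM with dox in lines 700 and 889. The plastic values were 130, 187 and 206 FPKM in untreated lines 560, 700 and 889 and 75.1, 163 and 83.8 FPKM with dox. All 3 plastic pairs were lower with dox, with the dox library of line 700 above the untreated library of line 560. The ratio of Col4a1 to Col4a2 stayed between 0.883 and 1.23 over the 12 libraries, while Col4a1 itself ranged from 25.7 to 253 FPKM.

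**Figure D2:**
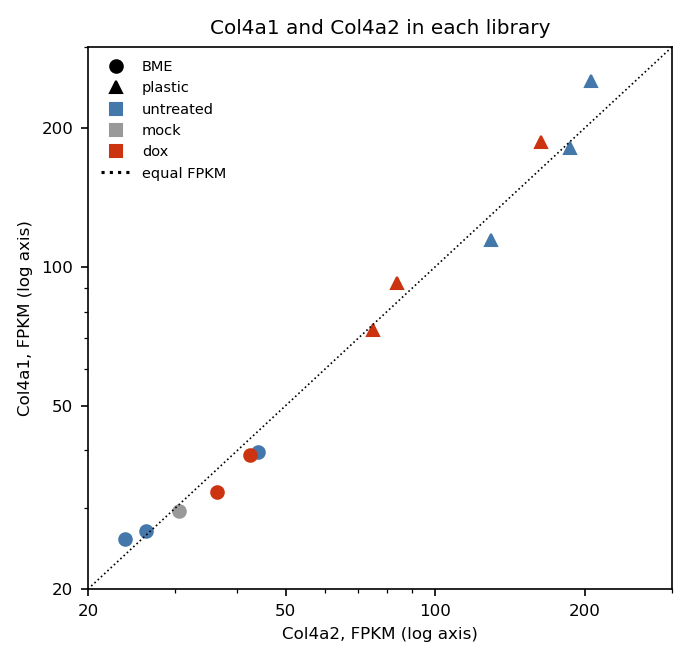
Col4a1 against Col4a2 in each of the 12 libraries, in FPKM on log axes, with circles for BME, triangles for plastic and color for treatment. Points lie near the dotted line of equal FPKM, with ratios of 0.883 to 1.23.

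The other expressed chain of this network, Col4a5 (chrX:137909928-138123778, plus strand), was lower than Col4a1 in every library, at 0.0567 to 0.192 of its FPKM in BME and 0.00339 to 0.0284 on plastic. It measured 3.67, 5.35 and 1.45 FPKM in untreated lines 682, 700 and 889 in BME, 4.85 FPKM in the mock library, and 7.50 and 1.95 FPKM with dox in lines 700 and 889. Line 889 was low and line 700 high with or without dox. On plastic it measured 1.11, 2.37 and 4.38 FPKM untreated and 2.07, 0.630 and 1.78 FPKM with dox in lines 560, 700 and 889, higher in line 560 and lower in the others. Its known partner chains were under the minimum: Col4a6 was listed at 0 in 5 of 6 BME and all 6 plastic libraries, and Col4a3 and Col4a4 had means of 0.0939 and 0.0943 FPKM in BME.

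Col18a1 (chr10:76514923-76629293, minus strand), the source of the endostatin fragment, was the chain whose dox libraries stood above every control library in both tables. In BME it measured 12.5, 27.1 and 14.6 FPKM in untreated lines 682, 700 and 889, 31.0 FPKM in the mock library, and 39.4 and 32.7 FPKM with dox in lines 700 and 889. On plastic the untreated libraries were almost equal, at 30.9, 30.03 and 30.3 FPKM in lines 560, 700 and 889, and the dox libraries of those lines measured 45.3, 60.1 and 72.4 FPKM. Group means were 36.0 ± 4.72 (SD, n = 2) with dox and 21.3 ± 9.13 (SD, n = 4) in the controls in BME, and 59.3 ± 13.6 with dox and 30.4 ± 0.466 without (SD, n = 3 each) on plastic. Of all genes tested, 6.33% in BME and 7.87% on plastic also had every dox library above every control library.

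By same-line pairs, on the scale of log2(FPKM + 1), Col18a1 was higher with dox by 0.52 and 1.11 in lines 700 and 889 in BME and by 0.54, 0.98 and 1.23 in lines 560, 700 and 889 on plastic. It was thus higher in 5 of 5 dox pairs, as were 8.7% of the genes kept in both tables. It was also higher by 1.25 in the mock library than in the untreated library of line 682, the largest of the 6 pair differences of this chain, where Smad4 differed by 0.19. Genes higher in all 6 pairs were 6.85% of those kept in both tables. With 1 mock library, whose labels conflict, the parts of dox itself and of SMAD4 in the Col18a1 difference cannot be told apart.

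**Figure D3:**
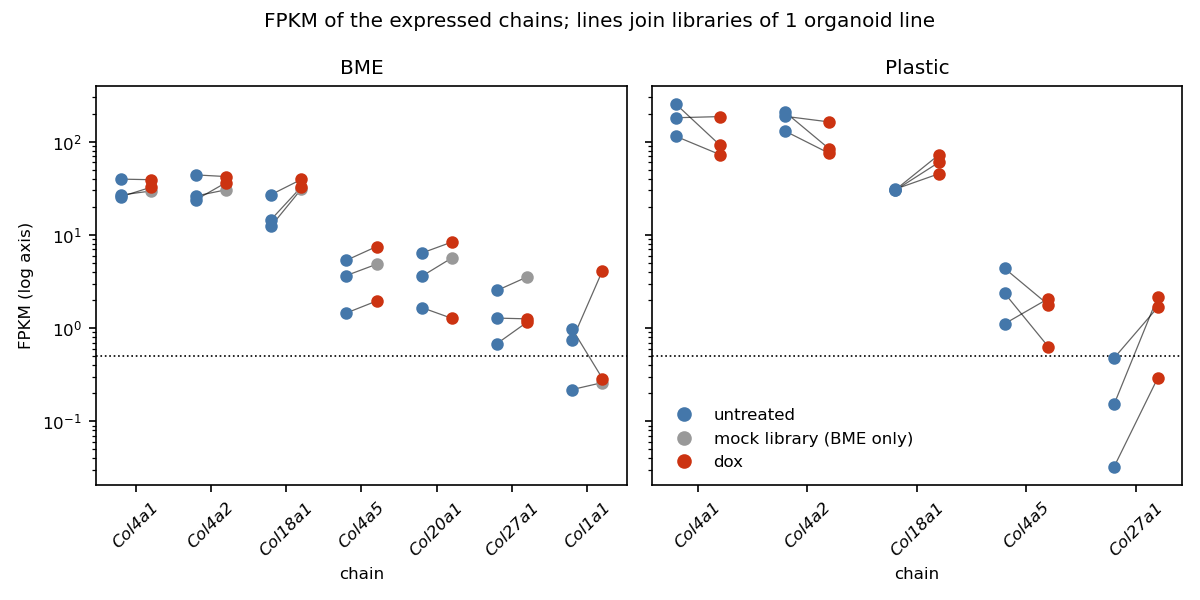
FPKM (log axis) of the chains expressed in BME (7, left) and on plastic (5, right), with blue points for untreated, grey for the mock and red for dox libraries and lines joining libraries of 1 organoid line. The dotted line marks 0.5 FPKM. Col18a1 is the chain whose red points all lie above its blue and grey points in both panels, with dox at 32.7 to 39.4 FPKM in BME and 45.3 to 72.4 FPKM on plastic.

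Among the fibrillar chains, Col27a1 and Col1a1 were expressed in BME. Both fall under the level chosen for full listing, and their values in single libraries were picked out after they had been seen. Col27a1 (chr4:62875038-62996025, plus strand), a fibrillar chain best known from cartilage, measured 2.54, 1.28 and 0.682 FPKM in untreated lines 682, 700 and 889 in BME, 3.54 FPKM in the mock library, and 1.26 and 1.16 FPKM with dox in lines 700 and 889. There the lines differed more than the treatments, and line 682 was highest. On plastic it measured 0.477, 0.032 and 0.152 FPKM untreated and 1.68, 0.294 and 2.18 FPKM with dox in lines 560, 700 and 889. It was higher in all 3 plastic pairs, by 0.86, 0.33 and 1.47, as were 18.6% of all genes tested on plastic. Its plastic mean was 0.221 FPKM untreated and 1.39 FPKM with dox, so it met the minimum only through the dox libraries. Its direction on plastic is therefore not independent of that minimum. The lowest Col27a1 value rested on about 5 reads, so its difference in line 700 is imprecise. Its highest plastic value was in the dox library of line 889, where 14 fibroblast and mural markers summed to 28.1 FPKM, against 4.54 to 10.1 FPKM in the other 5 plastic libraries. Most of that sum was Vim, at 21.6 FPKM, which differed by 1.29, -0.09 and 3.97 in the same 3 pairs. Without that library the fitted plastic difference of Col27a1 was 0.63 (SE 0.40). The part of other cells in the Col27a1 difference was not tested.

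Col1a1, the main chain of type I collagen, reached 4.13 FPKM in the BME dox library of line 889 and was 0.219 to 0.973 FPKM in the other 5 BME libraries. Without this library, Col1a1 was under the minimum of 0.5 mean FPKM in BME. Its partner Col1a2 was highest in the same library, at 0.929 FPKM, as were Col3a1 (0.301 FPKM) and the summed beaded filament chains (0.299 FPKM). On plastic Col1a1 was at most 0.0924 FPKM. Over the 14 fibroblast and mural markers, of which 4 had a mean of at least 0.5 FPKM in BME, the level summed to 14.3 FPKM in this library and to 7.12 to 12.05 FPKM in the other 5. Of the 14, 6 were at their highest BME level there, among them Tagln (7.55 FPKM), Vim (2.39 FPKM, at most 0.429 FPKM in the other BME libraries), Acta2 (1.28 FPKM), Des (0.375 FPKM) and Thy1 (0.0382 FPKM). Twist1 (2.10 FPKM) and Pdgfrb (0.379 FPKM) were lower there than in the untreated library of the same line (2.84 and 1.70 FPKM), and 4 of the 14 were listed at 0, Dcn, Lum, Mfap5 and Gli1. Of 5 endothelial markers 1 was highest there, Tek at 3.62 FPKM, with Cdh5 and Emcn listed at 0. The 5 leukocyte markers summed to 6.50 FPKM, below the 6.95 to 17.2 FPKM of the other BME libraries. The part of other cell types in the Col1a1 level was not tested. In bulk RNA, fewer cells of a type and less RNA per cell cannot be told apart.

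The FACIT chain Col20a1 (chr2:180721240-180752245, plus strand) was expressed in BME alone by the minimum used. It measured 3.60, 6.39 and 1.66 FPKM in untreated lines 682, 700 and 889, 5.66 FPKM in the mock library, and 8.39 and 1.27 FPKM with dox in lines 700 and 889. As with Col4a5, line 889 was lowest and line 700 highest with and without dox. On plastic it ranged from 0.308 to 0.588 FPKM, a mean just under the minimum.

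Of the 37 chains under the minimum, 32 never exceeded 0.5 FPKM in any library, and 2 exceeded 1 FPKM in some library. These were the FACIT chain Col16a1, at 1.65 FPKM in the untreated BME library of line 889, and the fibrillar chain Col5a3, at 1.30 FPKM in the plastic dox library of line 889 and listed at 0 in all 6 BME libraries. Col22a1, another FACIT chain, was 0.905 FPKM in that same plastic dox library and at most 0.147 FPKM in the other 5. The 14 fibroblast and mural markers summed to 28.1 FPKM in this library and to 4.54 to 10.1 FPKM in the other 5, with Vim at 21.6 FPKM. Of these 14 markers, 2 (Vim and Acta2) were highest there and 7 were listed at 0, among them Lum and Thy1, which were at 0 in all 6 plastic libraries. The 5 leukocyte markers summed to 39.4 FPKM, against 3.57 to 16.0 FPKM in the others, and 1 of the 5 was highest there, the macrophage marker Cd68, at 38.7 FPKM. Csf1r, another macrophage marker, was 0.470 FPKM there and 0.851 to 1.26 FPKM in the 3 untreated plastic libraries, Ptprc was 0.0239 FPKM, and Cd3e was listed at 0 in all 6. The part of other cells in these levels was not tested. Col17a1, the hemidesmosome chain, was at most 0.194 FPKM in any library, and Col7a1, the chain of the anchoring fibrils under the epithelium, at most 0.410 FPKM.

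The dox difference of each chain was then tested with limma across all genes with a mean of at least 0.5 FPKM, on log2(FPKM + 1), which understates the change of low genes. Calls required a Benjamini-Hochberg adjusted p under 0.05 together with a change of more than 1 in either direction. In BME, 0 of 7 chains were called, where 0.0231% of 12996 genes tested were called. On plastic, 0 of 5 chains were called, where 0.0324% of 12333 were. With the p left unadjusted, 0 of 7 chains in BME and 0 of 5 on plastic passed both limits, against 0.954% and 3.64% of all genes. With 2 to 4 libraries a group, a missed threshold does not show that the levels were equal. Smad4, the induced gene, was itself not called. Its fitted difference was 1.36 in BME (SE 0.27, limma adjusted p 0.959) and 3.42 on plastic (SE 0.55, limma adjusted p 0.162).

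The fitted difference of Col18a1 was 0.82 in BME (SE 0.39, limma adjusted p 0.959) and 0.91 on plastic (SE 0.22, unadjusted p 0.00455, limma adjusted p 0.348). On plastic it passed a p of 0.05 before adjustment, but not after adjustment over all genes. Without the plastic dox library of line 889, whose summed markers stood apart, it was 0.76 (SE 0.23, unadjusted limma p 0.0188). The type IV chains were a little higher with dox in BME, by 0.24 (SE 0.21) for Col4a1 and 0.36 (SE 0.26) for Col4a2, both within the spread. On plastic they were lower, at -0.68 (SE 0.44, limma adjusted p 0.750) for Col4a1 and -0.76 (SE 0.35, limma adjusted p 0.640) for Col4a2. Col4a5 differed by 0.14 (SE 0.54) in BME and -0.49 (SE 0.42) on plastic, Col27a1 by -0.34 (SE 0.42) and 0.88 (SE 0.38), and in BME Col20a1 by -0.10 (SE 0.65) and Col1a1 by 0.76 (SE 0.56). None of these had a limma adjusted p under 0.613. On plastic, Col27a1 was tested only because its dox libraries lifted its mean above the minimum.

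Single libraries weighed on these values. Without the dox library of line 700 on plastic, 3 of 6 chains tested passed the unadjusted threshold, as did 564 of 12364 genes. The 3 changes were 1.28 for Col27a1, -1.07 for Col4a1 and -1.10 for Col4a2. Without that of line 560, Col18a1 passed it, at 1.09, as did 623 of 12292 genes. There the falls of Col4a1 and Col4a2 were smaller, at -0.40 and -0.54. Without the untreated plastic library of line 889, Col4a1 was -0.41 and Col4a5 -0.15. In BME, Col18a1 passed the threshold without the mock library, at 1.03, as did 133 of 12964 genes. Col1a1 changed by 1.76 without the dox library of line 700, a fit that leaves the dox library of line 889 alone. That library is also the one through which Col1a1 met the minimum. With the line as a block the Col1a1 change was 0.47, and with the mock library counted with dox it was 0.33. None of the chains was called in any of these fits.

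The same-line pairs of the other chains spread around these values. Col4a1 pairs differed by -0.02 and 0.33 in BME (lines 700 and 889), by 0.14 in the mock pair, and by -0.64, 0.04 and -1.45 on plastic (lines 560, 700 and 889). Col4a2 pairs differed by -0.06 and 0.59 in BME, by 0.21 in the mock pair, and by -0.78, -0.20 and -1.29 on plastic. Both chains thus had opposite signs in line 889 in the BME and plastic pairs, and Col4a2 was lower in 3 of 3 plastic pairs, as were 18.7% of all genes tested there. Col4a5 was higher in both BME dox pairs (0.42 and 0.27) and in the mock pair (0.32), as 27.2% of genes were in both BME dox pairs, and on plastic it differed by 0.54, -1.05 and -0.95. Col20a1 differed by 0.35 and -0.23 in BME and 0.54 in the mock pair, Col27a1 by -0.01 and 0.36 and 0.36, and Col1a1 by -0.62 and 1.55 and 0.05.

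**Figure D4:**
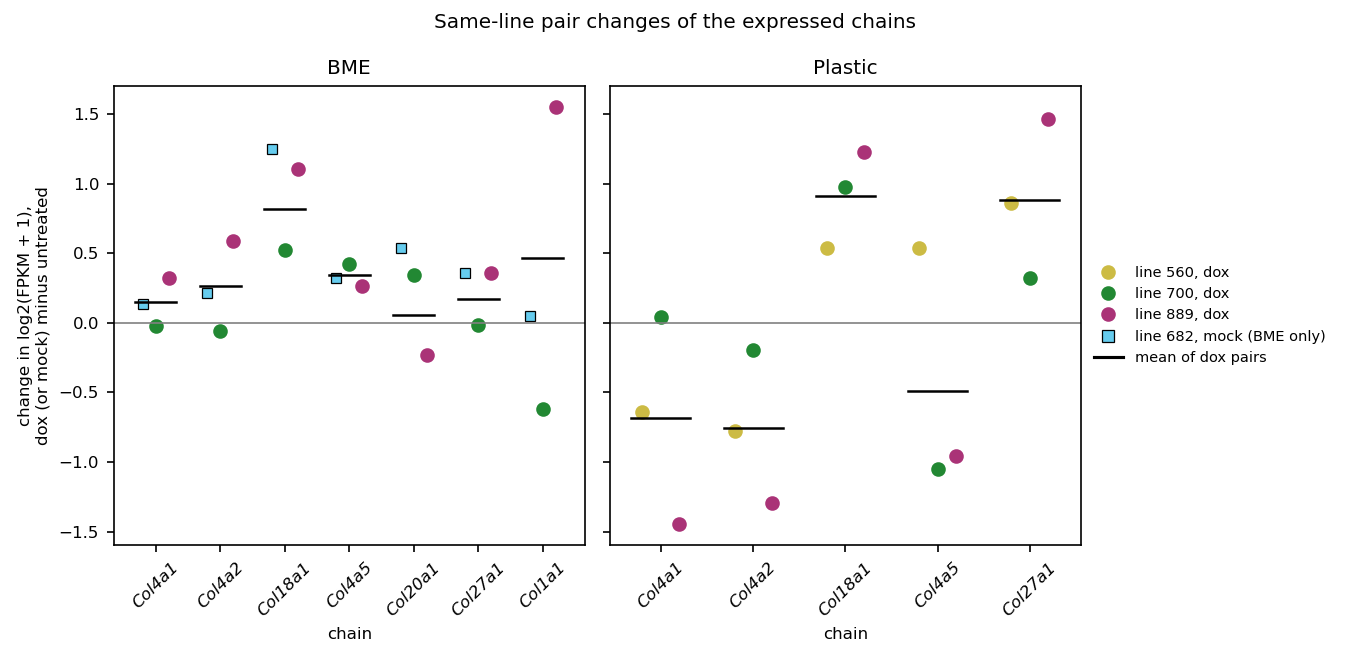
Difference in log2(FPKM + 1) between dox (or mock) and untreated libraries of the same line for the chains expressed in BME (left) and on plastic (right). Circles are dox pairs, squares the mock pair of line 682 and bars the mean of the dox pairs. Col18a1 lies above 0 in all 6 pairs, from 0.52 to 1.25, and Col4a2 lies below 0 in all 3 plastic pairs, from -1.29 to -0.20.

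Whether a dox difference depended on the environment was tested with a limma interaction term over the 11977 genes that passed the minimum in both tables. Of 5 chains tested, 0 were called, where 0% of all genes were. At an unadjusted p under 0.05 and a difference over 1, 1 chain passed, Col4a2, against 1.33% of all genes. Its dox change was lower on plastic than in BME by -1.12 (SE 0.46, unadjusted p 0.0352, limma adjusted p 1). Col4a1 differed by -0.92 (SE 0.53), Col4a5 by -0.63 (SE 0.73) and Col27a1 by 1.23 (SE 0.59). Col27a1 entered this test only through its plastic dox libraries. For Col18a1 the difference was 0.09 (SE 0.46), an error too wide to show that its changes in the 2 environments were alike. The BME and plastic libraries of lines 700 and 889 come from the same lines, and within those lines alone the Col4a2 difference was -1.01 (limma, unadjusted p 0.119). With each library left out in turn, Col4a2 passed this unadjusted threshold in 3 of 12 fits (without untreated line 700 in BME, untreated line 560 on plastic or dox line 700 on plastic) and missed it in the other 9, with differences of -1.46 to -0.91 and unadjusted limma p of 0.00372 to 0.103. With the mock library counted with dox, Col4a2 missed it, at -1.004 (unadjusted limma p 0.0535). Col4a2 passed it with the line as a block, at -1.02 (unadjusted limma p 0.0256). It also passed with a pseudocount of 0.1, no filter, a minimum of 1 FPKM or median centring. Those differences were -1.16 to -1.12 (unadjusted limma p 0.0285 to 0.0366). Without the plastic dox library of line 700, 3 of 6 chains tested passed the threshold, as did 287 of 11998 genes. These were Col4a1 (-1.31), Col4a2 (-1.46) and Col27a1 (1.62). Col4a1 also passed it without untreated line 560 on plastic, at -1.22, as did 232 of 11932 genes. Col27a1 passed it without untreated line 889 in BME, at 1.47, as did 223 of 11939 genes. The Col27a1 difference moved widely with the setting, to 0.71 with the line as a block, 0.65 with the mock library counted with dox, 0.72 in lines 700 and 889 alone and 2.58 with a pseudocount of 0.1. In lines 700 and 889 alone, the differences of Col4a5 and Col18a1 were -1.34 and 0.29.

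Start regions were inspected for the expressed chains that were higher in all 3 plastic pairs, Col18a1 and Col27a1, chosen after their values had been seen. Col27a1 met the plastic minimum only through its dox libraries. SMAD proteins are known to bind CAGAC and GGCGCC, and AP-1, a frequent partner, TGANTCA. RefSeq upstream windows were placed in NCBIM37 by an exact match, with bases in annotated exons left out, and are printed 5′ to 3′ on the sense strand with matches on either strand in capitals.

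Col18a1, chr10:76629294-76629525, minus strand: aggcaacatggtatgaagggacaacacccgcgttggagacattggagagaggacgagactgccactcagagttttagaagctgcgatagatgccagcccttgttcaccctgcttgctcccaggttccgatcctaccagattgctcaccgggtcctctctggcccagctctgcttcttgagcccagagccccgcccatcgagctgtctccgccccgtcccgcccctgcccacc
Col27a1, chr4:62876196-62876445, plus strand: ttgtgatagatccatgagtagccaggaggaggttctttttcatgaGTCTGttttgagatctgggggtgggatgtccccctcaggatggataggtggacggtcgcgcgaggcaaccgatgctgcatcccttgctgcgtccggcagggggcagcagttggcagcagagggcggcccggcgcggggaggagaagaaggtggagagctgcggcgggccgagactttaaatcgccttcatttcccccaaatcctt

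The Col18a1 window of 232 bases ends directly upstream of the annotated gene and held none of the 3 motifs. RefSeq gives Col18a1 a second upstream window, which is not shown because 241 of its 250 bases are annotated exon, so the lack of motifs covers only the first. The Col27a1 window of 250 bases lies inside the annotated gene, outside its exons, and starts 1158 bases from the gene's annotated first base. It held CAGAC once, on the antisense strand, and neither other motif. CAGAC occurs in 42.2% of 32851 RefSeq windows of 250 bases, GGCGCC in 9.59% and TGANTCA in 6.75%, and the shares in the first 232 bases were 39.9%, 8.72% and 6.39%. A match or its lack describes these letters only.

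Collagen chains need enzymes and partners to be built and held, and 56 such genes in 8 roles were examined. Of these, 32 had a mean of at least 0.5 FPKM in BME and 31 on plastic, and 0 were called in either table. At an unadjusted p under 0.05 and a change over 1, 0 passed in BME and 2 passed on plastic, both higher. Their median fitted difference was 0.14 in BME and 0.36 on plastic, against -0.01 and 0.01 over all genes tested. The epithelial markers, a list outside these roles, had medians of 0.53 in BME and 0.31 on plastic. On plastic, 13 of 31 were higher in all 3 pairs and 1 lower, where 18.6% of all genes were higher and 18.7% lower. Among those 13 was Ddr2, with plastic means of 0.0754 FPKM untreated and 2.16 FPKM with dox. It met the minimum only through the dox library of line 700, at 6.28 FPKM. In BME, 13 of 32 were higher in both dox pairs and 6 lower, where 27.2% and 29.5% of all genes were. The list was written by hand with earlier results of these data known, so these shares describe it and test nothing.

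The 2 genes that passed unadjusted on plastic were named after their values were seen. P4ha1, a catalytic subunit of prolyl 4-hydroxylase, which stabilizes the triple helix, measured 20.4, 9.23 and 9.62 FPKM untreated and 30.6, 17.5 and 48.4 FPKM with dox in lines 560, 700 and 889, a fitted difference of 1.21 (SE 0.45, limma adjusted p 0.567). Bmp1, the protease that removes the C-terminal propeptide of fibrillar procollagens, measured 9.91, 12.6 and 13.0 FPKM untreated and 14.7, 26.5 and 41.5 FPKM with dox, a difference of 1.05 (SE 0.37, limma adjusted p 0.562). Each was higher in 3 of 3 plastic pairs, and the dox and untreated values of Bmp1 did not overlap, as for the 7.87% of all genes with every dox library higher. In BME both were higher in both dox pairs, by 0.50 and 0.24 for P4ha1 and 0.67 and 1.25 for Bmp1, and both were also higher in the mock pair, by 0.56 for P4ha1 and 0.44 for Bmp1. On plastic both were highest in the dox library of line 889, with pair differences in lines 560, 700 and 889 of 0.56, 0.86 and 2.22 for P4ha1 and 0.53, 1.02 and 1.61 for Bmp1. This is the library in which the fibroblast and mural markers, mostly Vim, summed to 28.1 FPKM (4.54 to 10.1 FPKM in the other 5). Of these 14 markers, 2 were highest there and 7 were listed at 0. The leukocyte markers, nearly all Cd68, summed to 39.4 FPKM there (3.57 to 16.0 FPKM in the other 5). Without that library the fitted differences were 0.87 (SE 0.44, unadjusted limma p 0.1002) for P4ha1 and 0.71 (SE 0.32, unadjusted limma p 0.0752) for Bmp1, so neither passed. Unadjusted, P4ha1 also missed a p of 0.05 without dox line 560 or untreated line 700 or 889, and Bmp1 did when dox line 700 or any single untreated library was left out. The part of other cells in these differences was not tested.

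Levels of the modifying enzymes differed widely within a role: of 9 prolyl hydroxylation genes 6 had a mean of at least 0.5 FPKM in each table, and of 5 lysyl modifiers 4 did. P4hb, the other subunit of prolyl 4-hydroxylase and a general disulfide isomerase, had means of 314 FPKM in BME and 280 FPKM on plastic, and Crtap, of the prolyl 3-hydroxylation complex, 19.3 and 23.0 FPKM. Among lysyl modifiers, Colgalt1, which adds galactose to hydroxylysine, had means of 64.1 and 96.4 FPKM and Plod3 22.8 and 22.9 FPKM. For folding and export, Ppib, a prolyl isomerase, had 231 and 201 FPKM and Mia2, of the machinery that loads large cargo at endoplasmic reticulum exit sites, 57.0 and 59.7 FPKM. Serpinh1, the collagen-specific chaperone HSP47, stood out after its values were seen, with means of 0.143 FPKM in BME and 0.0151 FPKM on plastic. Pcolce, which enhances the cleavage by Bmp1, had 6.45 and 8.22 FPKM.

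Of the crosslinking enzymes, the lysyl oxidase Loxl4 was the main one, with a mean of 11.9 FPKM in BME and 114 FPKM on plastic. Its plastic values were 33.4, 66.4 and 66.1 FPKM untreated and 55.2, 356 and 109 FPKM with dox in lines 560, 700 and 889, higher in 3 of 3 pairs, with a fitted difference of 1.27 (SE 0.68, limma adjusted p 0.670). Without the dox library of line 700, the highest, the difference was 0.55 (SE 0.44, unadjusted limma p 0.265). Loxl2 had a mean of 0.657 FPKM in BME and 0.447 FPKM on plastic. Pxdn, the peroxidase that crosslinks type IV collagen, had means of 0.0125 and 0.0165 FPKM, although Col4a1 and Col4a2 were the most abundant chains, and was picked out after its values were seen.

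Collagen receptors were led by Itgb1, the common beta subunit of collagen-binding integrins, with means of 108 FPKM in BME and 235 FPKM on plastic, and Ddr1, the epithelial discoidin domain receptor, with 67.5 and 107 FPKM. Itgb1 was higher with dox on plastic by 0.87 (SE 0.33, limma adjusted p 0.578). The hemidesmosome partners Cd151 (means of 93.9 and 199 FPKM) and Itgb4 (73.6 and 121 FPKM) were well expressed beside a Col17a1 level near 0. Agrn, a heparan sulfate proteoglycan of the basement membrane, had 51.9 and 51.6 FPKM and Hspg2, or perlecan, 9.76 and 8.08 FPKM. Neither passed the test, with Agrn at -0.10 (SE 0.24) in BME and -0.31 (SE 0.44) on plastic.

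**Figure D5:**
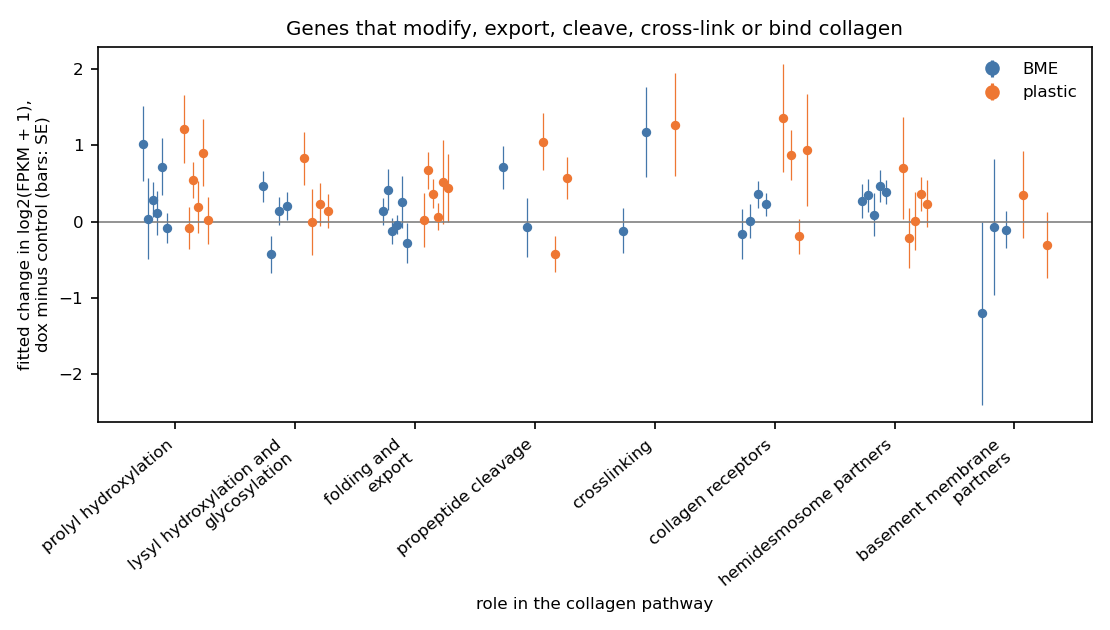
Fitted dox difference in log2(FPKM + 1) of each gene with a mean of at least 0.5 FPKM in 8 roles of the collagen pathway, in BME (blue, 32 genes) and on plastic (orange, 31 genes), with bars for the standard error. More points lie above 0 than below it, with medians of 0.14 and 0.36, and 0 genes were called.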

How the data were processed

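Per the labels and the study's methods, RNA of 12 libraries was quantified by the authors with kallisto and compared with DESeq2 (build mm9, versions not given in the sources used here). The deposited FPKM values come as 1 table per environment, each normalized on its own 6 libraries, with no further detail on that step. The authors' comparison tables (mean, log2 fold change, its error, statistic and p-values for dox against no dox) were not used.

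Values were analysed as log2(FPKM + 1) with limma 3.58.1 in R 4.3.3 (lmFit, eBayes with trend, two-sided), on every gene with a mean of at least 0.5 FPKM over the 6 libraries, p-values being adjusted by Benjamini-Hochberg over all of them. The fit used 2 dox against 4 control libraries in BME and 3 against 3 on plastic, with no block, and an interaction with environment over genes kept in both. The fit was tested on simulated data. The collagen chain classes, pathway roles and marker lists were written by hand, and members and lists were chosen with earlier results of these data known. Fully listed chains had a mean of at least 2 FPKM in either table. For each pathway role the 2 genes with the highest mean in each table were named, besides any gene called.

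Libraries were paired by the line number in their titles, taken as the organoid line. Deviations of same-line libraries from their group means correlated at 0.18, 0.61 and 0.66 in BME (lines 682, 700 and 889) and 0.46, 0.61 and 0.25 on plastic (560, 700 and 889). Each group holds 1 library per line, and whether each line is a separate animal is not stated in the sources used here. FPKM holds no counts, so depth was estimated from the steps of low values of 2980 single-transcript genes, of which 673 gave whole steps within 0.12, and reads per chain are approximate. Coordinates are those of GENCODE vM1 on NCBIM37, which is mm9. It holds 43 of the 44 chains, all but Col26a1. Strand use in counting is not stated. Overlapping genes share 22 exon bases between Col4a1 and Col4a2, 43 between Col4a2 and Gm15419 and 109 between Col1a1 and Gm17329. Upstream sequences are from the RefSeq promoter table (GRCm38.p6). The alternatives tried were a pseudocount of 0.1, no filter, a minimum of 1 FPKM, median centring, the line as a block, each library left out, the mock library counted with dox, and the interaction within lines 700 and 889.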

Additional observations from a re-analysis of the deposited data

How the results depend on the processing

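The count of chains called was 0 in BME, on plastic and in the interaction under every alternative run, the replicate block by line included. With the block, the Col18a1 change was 0.82 in BME and 0.91 on plastic (limma adjusted p 0.677 and 0.219; over all its alternatives 0.662 to 1 and 0.181 to 0.999). The main fits leave the pairing by line aside. On plastic, the block gave unadjusted limma p of 0.00714 for Col18a1, 0.036 for Col4a2 and 0.0223 for Col27a1. Without the block these were 0.00455, 0.0716 and 0.057. For Col4a1 and Col4a5 the blocked limma p was 0.0862 and 0.241. Under a pseudocount of 0.1 the mean Col27a1 pair change on plastic was 2.13 in place of 0.88, which follows from the low FPKM of this chain. Small BME changes turned direction: Col20a1, -0.10 in the report, was 0.06 with the replicate block and 0.22 with the mock library counted with dox, and Col27a1, -0.34, was 0.17 and 0.24. The Col18a1 interaction of 0.09 was -0.05 with the mock library counted with dox. The cause was not tested. Leaving out each library in turn moved the BME change of Col20a1 between -1.12 and 0.92, that of Col4a5 between -0.62 and 0.90, and the interactions of Col4a5 between -1.39 and 0.13 and Col18a1 between -0.12 and 0.30. Col18a1 kept its direction in these fits, at 0.61 to 1.03 in BME and 0.76 to 1.09 on plastic. Where a left-out library leaves 1 dox library, that library is assumed to vary like the others. The low depth of chains under 0.5 FPKM limits any statement on their change.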
